A study of Mus musculus with 16 samples.

Results

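Genes of the TGF-beta, activin and BMP pathways were followed in the neonatal mouse ventricle with and without *Lrrc10*, a cardiomyocyte gene. The set holds 9 genes taken by name: the TGF-beta ligands Tgfb1, Tgfb2 and Tgfb3, the latent TGF-beta binding protein gene Ltbp2, the activin subunit gene Inhba, the ligand gene Bmp4, the receptor genes Tgfbr1 and Tgfbr2, and the inhibitor gene Smad7. All 9 were found among the 51912 genes of the table, and all 9 were among the 20159 genes that passed the filter on low counts. Ventricles of WT C57BL/6J mice and of whole-body Lrrc10-/- (KO) mice on a C57BL/6 background were collected 7 days after an operation on postnatal day 1. The operation was either a myocardial infarction (MI) made by tying the left anterior descending artery, or a sham (SH) in which the chest was opened but the heart was neither exposed nor ligated. This gave 4 groups of 4 libraries, WT SH and KO SH after the sham and WT MI and KO MI after the infarct. The deletion is constitutive and in every cell, so KO and WT hearts differed from before birth, and the tissue was the whole ventricle on both sides of the ligature. The labels number the libraries but do not name the mice, so p-values measure the spread between these libraries.

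TGF-beta ligands are secreted in a latent form that is held in the matrix by binding proteins and freed by integrins and proteases. The freed ligand joins a type II and a type I receptor, which phosphorylate SMAD2 and SMAD3; activins use related receptors and the same SMADs, while BMPs signal through SMAD1, SMAD5 and SMAD9. In the injured heart the TGF-beta branch is known for turning fibroblasts into matrix-making myofibroblasts, and SMAD7 is an inhibitor that the pathway itself induces.

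The windows around the transcription starts of Ltbp2, Inhba and Bmp4, 3 of the 4 members that passed the test in at least 1 comparison, are shown first, because the results below turn on these genes. Each is 300 bases of the GRCm39 genome, 250 before and 50 after the start of the Ensembl canonical transcript in GENCODE M39, read 5′ to 3′ on the strand of the gene. Capitals mark matches, on either strand, to 7 short motifs, some of which can overlap. The motifs were chosen because SMAD proteins or their partners bind several of them. The SMAD palindrome was searched as GTCTAGAC and the cyclic AMP element as TGACGTCA. The core of the SMAD-binding CAGA box was searched as CAGACA, which SMAD3 and SMAD4 are known to contact. A GC-rich SMAD element of the BMP branch was searched as GGCGCC. The AP-1 element, where N stands for any base, was searched as TGANTCA and the TATA box of the core promoter as TATAAA. The GC box, which general factors such as SP1 bind, was searched as GGGCGG.
Ltbp2 (chr12:84923257-84923556, minus strand): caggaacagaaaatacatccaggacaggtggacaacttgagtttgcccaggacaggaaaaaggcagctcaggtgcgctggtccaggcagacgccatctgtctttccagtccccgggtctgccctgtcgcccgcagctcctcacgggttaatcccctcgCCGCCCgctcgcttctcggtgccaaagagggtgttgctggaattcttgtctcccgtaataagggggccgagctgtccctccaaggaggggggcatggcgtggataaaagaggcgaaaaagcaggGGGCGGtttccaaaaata
Inhba (chr13:16188733-16189032, plus strand): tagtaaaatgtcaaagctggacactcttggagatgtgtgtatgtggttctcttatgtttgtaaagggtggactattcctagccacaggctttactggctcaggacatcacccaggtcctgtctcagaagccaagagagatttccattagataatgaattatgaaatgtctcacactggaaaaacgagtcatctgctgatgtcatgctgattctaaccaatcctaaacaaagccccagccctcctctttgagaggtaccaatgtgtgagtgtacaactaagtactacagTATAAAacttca
Bmp4 (chr14:46628077-46628376, minus strand): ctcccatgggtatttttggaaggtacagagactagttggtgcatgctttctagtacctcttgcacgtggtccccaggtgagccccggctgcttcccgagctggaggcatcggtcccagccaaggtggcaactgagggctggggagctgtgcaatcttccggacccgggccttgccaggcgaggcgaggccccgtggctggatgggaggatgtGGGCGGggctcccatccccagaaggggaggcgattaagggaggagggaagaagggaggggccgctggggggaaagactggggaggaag

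The letters matched in these windows were those of general promoter elements. The Ltbp2 window held the GC box letters at 92 bases before and 32 bases after the start, and the Bmp4 window held them at 38 bases before. TATA box letters stood 38 bases after the start of Inhba. Among 21426 windows of the same length, those of protein-coding genes, 42.72% held the GC box letters and 13.19% held the TATA box letters. None of the 3 windows held the letters of the SMAD palindrome, the CAGA core, the GC-rich SMAD element, AP-1 or the cyclic AMP element, which were in 0.27%, 18.89%, 12.46%, 7.17% and 2.42% of all windows. The CAGA core was in the windows of Tgfb2 (96 bases before the start) and Tgfbr2 (201 bases before), and the GC-rich SMAD element in that of Tgfbr1 (145 bases before). The canonical starts of Inhba and Bmp4 lay inside these genes, which have other transcripts that start further upstream. In that annotation the genes are at chr12:84829986-84923306 (Ltbp2, ENSMUSG00000002020), chr13:16186373-16206206 (Inhba, ENSMUSG00000041324) and chr14:46620250-46636745 (Bmp4, ENSMUSG00000021835).

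The libraries held between 33783874 and 57470159 counts. Lrrc10 had 0 counts in all 8 KO libraries, which at the floor of 3 counts allows up to 0.081 CPM in the shallower KO SH library, and 1075 to 1850 counts in WT libraries. Cardiomyocyte markers were abundant, with 8 genes summing to between 27396 and 40431 CPM. The 6 lung epithelial genes summed to at most 1.10 CPM, highest in KO MI replicate 7 and next in KO MI replicate 2 (0.551 CPM). Of these genes, Sftpc was at 0.856 CPM in replicate 7 and 0.472 CPM in replicate 2, against at most 0.0193 CPM in the 14 other libraries. The groups were described as balanced for sex, but Xist was high in 0 of 4 WT SH libraries and in 2 of 4 libraries of each other group, so comparisons with WT SH were refitted with a term for high Xist. With it, 12 of the 13 pathway gene calls in these comparisons were still called, and Timp1 in WT MI was not (log2 fold change 0.92, adjusted p = 0.103). KO MI replicate 2 stood apart: its 6 atrial markers summed to 2501 CPM, 2396 of it Nppa, against 235 to 947 CPM in the other KO MI libraries and 120 to 302 CPM in the other groups, and its 9 skeletal muscle markers to 740 CPM, of which Acta1 was 410 and Ckm 261. KO MI replicate 7 stood apart too: the other 7 skeletal muscle markers were higher in KO MI replicates 2 and 7 than in all 14 other libraries, with Myh8 at 42.3 and 58.5 CPM against at most 5.10 and Myh3 at 12.6 and 34.3 CPM against at most 5.17. Atrial Sln and Myl4 were highest in KO MI replicate 3. Member calls that rest on replicate 2 or 7 are given with and without that library.

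Expression is given in CPM, counts scaled to a common TMM-adjusted library size. Per kilobase of exon, Tgfbr2 had the highest level of the 9 (7.04 CPM per kb over the 16 libraries), followed by Smad7 (4.65), Tgfbr1 (4.53), Tgfb2 (3.67), Tgfb3 (3.50), Inhba (2.41), Tgfb1 (1.91), Bmp4 (1.37) and Ltbp2 (0.823). The receptors were thus at a higher level per length than any of the ligands. The counts behind a single value ran from 66 for Ltbp2 in a KO SH library to 3476 for Tgfbr2. In bulk tissue, fewer cells of a type and less RNA per cell cannot be told apart.

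A gene was called when its adjusted p was under 0.1 and its absolute log2 fold change at least 0.5 (edgeR quasi-likelihood test, Benjamini-Hochberg over all 20159 genes). Against KO SH, 4 of the 9 rose in KO MI (Ltbp2, Inhba, Tgfb3 and Bmp4) and none fell, where 7.42% of all genes tested were called. In WT hearts 1 of 9 rose (Ltbp2), where 2.78% of all genes were called. Between genotypes, 1 of 9 was lower in KO among sham hearts (Inhba; 5.01% of all genes called) and 1 of 9 was higher in KO among infarcted hearts (Bmp4; 1.73% of all genes called). The medians of the 9 log2 fold changes were 0.44 for the infarct response of KO hearts and 0.02 for that of WT hearts, and -0.15 for KO against WT in sham hearts and 0.15 in infarcted hearts, while the medians over all genes tested were between -0.01 and 0.01. These comparisons share groups with each other and are set side by side only. The 9 genes were chosen with earlier results of these data known. Their counts here and below, set beside the shares of all genes, are descriptive and test nothing about the set.

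**Figure D1:**
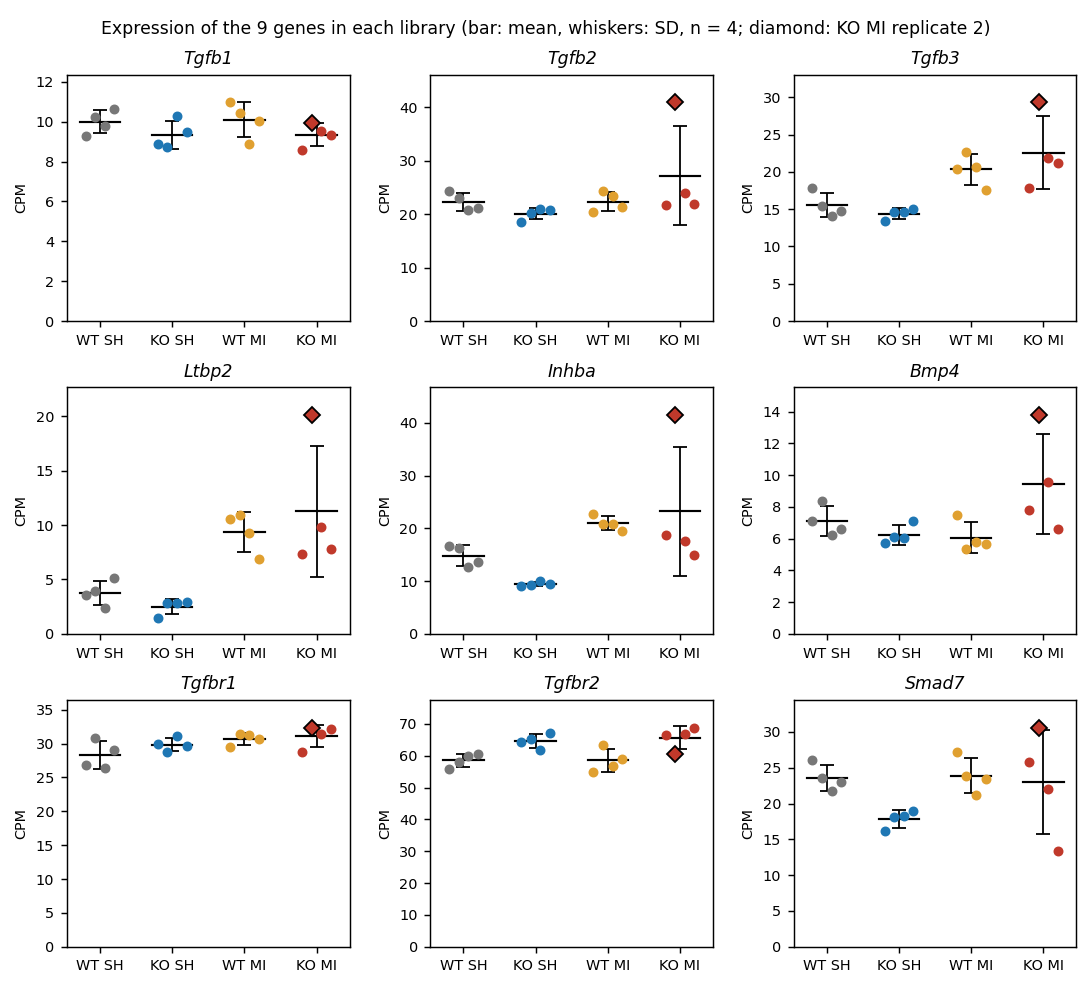
CPM (y axis, from 0) of the 9 genes in each of the 16 libraries of the 4 groups, with the mean and SD of 4 libraries in black. Ltbp2 lies between 6.86 and 20.1 CPM in the MI libraries and between 1.49 and 5.13 CPM in the sham libraries, and KO MI replicate 2 (diamond) is the highest KO MI library for 8 of the 9 genes.

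The CPM ranges of the groups are a coarser measure that needs no model. In KO SH against WT SH, 3 of 9 members did not overlap (Tgfbr2 higher, Inhba and Smad7 lower), where 18.5% of all genes did not. In KO MI against KO SH it was 4 of 9 (Tgfb2, Tgfb3, Ltbp2 and Inhba; 14.9% of all genes), and in WT MI against WT SH 2 of 9 (Ltbp2 and Inhba; 12.1% of all genes). In KO MI against WT MI all 9 overlapped, where 6.47% of all genes did not.

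Ltbp2 showed the largest response to infarct among the 9 genes. It encodes a matrix protein of elastic fibres that belongs to the latent TGF-beta binding family but, unlike its relatives, is not known to bind the latent ligand. Ltbp2 was at 3.61, 3.93, 2.37 and 5.13 CPM in WT SH and at 1.49, 2.84, 2.82 and 2.91 CPM in KO SH. It was at 10.6, 10.9, 9.24 and 6.86 CPM in WT MI and at 7.34, 20.1, 9.81 and 7.76 CPM in KO MI. Every MI library was thus above every sham library, with the highest value in KO MI replicate 2. The rise was 2.49-fold in WT hearts (log2 fold change 1.31, SE 0.30, adjusted p = 0.0231) and 4.51-fold in KO hearts (log2 fold change 2.17, SE 0.31, adjusted p = 0.000753). Ltbp2 was called in all 17 alternative analyses of each of these comparisons. Without KO MI replicate 2 its rise in KO hearts was 1.73 on the log2 scale (adjusted p = 0.000562), and with the Xist term its rise in WT hearts was 1.28 (adjusted p = 0.0529). The difference between the 2 rises was 0.86 on the log2 scale (SE 0.42, adjusted p = 0.385), which did not pass. Genotypes overlapped in sham hearts (log2 fold change -0.59, SE 0.32, adjusted p = 0.286) and post-MI (0.27, SE 0.28, adjusted p = 0.791).

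Tgfb3 rose with Ltbp2, by a smaller factor. It encodes the third TGF-beta ligand. Tgfb3 was at 17.9, 15.5, 14.1 and 14.8 CPM in WT SH and at 13.4, 14.6, 14.6 and 15.0 CPM in KO SH. Post-MI it was at 20.4, 22.6, 20.7 and 17.6 CPM in WT hearts and at 17.9, 29.4, 21.8 and 21.2 CPM in KO hearts. All KO MI libraries were above all KO SH libraries, whereas 1 WT MI library lay just under the highest WT SH library. The log2 fold change was 0.65 in KO hearts (SE 0.12, adjusted p = 0.00286, 1.57-fold) and 0.39 in WT hearts (SE 0.12, adjusted p = 0.0926), the latter under the fold limit. Without KO MI replicate 2 the rise in KO hearts was 0.49 (adjusted p = 0.00524), just under the fold limit of 0.5. KO MI against WT MI gave 0.15 (SE 0.12, adjusted p = 0.685) with all libraries. Tgfb3 overlaps Ttll5, which lies on the opposite strand at 20.1 CPM on average. The study's methods describe the reads as strand-specific, and how the deposited counts used the strand was not tested.

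Tgfb2 and Tgfb1, the other two ligands, were called in no comparison. Tgfb2 was at 24.3, 23.0, 20.8 and 21.2 CPM in WT SH, and at 18.6, 20.2, 20.9 and 20.7 CPM in KO SH. Post-MI it was at 20.4, 24.3, 23.4 and 21.3 CPM in WT MI and at 21.7, 41.0, 24.1 and 22.0 CPM in KO MI. KO MI replicate 2 was far above all other libraries, and the remaining KO MI libraries lay just above KO SH. Its log2 fold change in KO hearts was 0.44 (SE 0.15, adjusted p = 0.0664), under the fold limit, and 0.17 (adjusted p = 0.227) without KO MI replicate 2. In WT hearts its log2 fold change was 0.00 (95% interval -0.31 to 0.32). Tgfb1 stayed between 8.56 and 11.0 CPM in all 16 libraries, and its log2 fold changes ran from -0.11 to 0.02 over the 4 comparisons. The 95% intervals of Tgfb1 ran from -0.28 at the lowest to 0.18 at the highest, so they hold no change of the size of the fold limit.

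Inhba was the member with the widest spread of group means in CPM. It encodes the beta A subunit, which pairs with itself to form activin A and with the alpha subunit to form inhibin A. Inhba was at 16.7, 16.4, 12.7 and 13.6 CPM in WT SH and at 9.15, 9.24, 10.1 and 9.44 CPM in KO SH, so the 2 sham groups did not overlap. It was at 22.6, 20.9, 20.9 and 19.4 CPM in WT MI and at 18.7, 41.5, 17.6 and 15.0 CPM in KO MI. Ordered by mean level from KO SH through WT SH and WT MI up to KO MI, only the last 2 neighbours overlapped. In KO hearts Inhba rose 2.45-fold post-MI (log2 fold change 1.30, SE 0.23, adjusted p = 0.00229), and by 0.85 (adjusted p = 0.000247) without KO MI replicate 2. It was called in all 17 alternatives of that comparison. In WT hearts the log2 fold change was 0.50 (SE 0.22, adjusted p = 0.263) and did not pass, although WT MI and WT SH did not overlap (exact permutation test, two-sided, p = 0.0286, the smallest that 4 against 4 libraries can give). Fitted on these 2 groups alone it passed (log2 fold change 0.50, adjusted p = 0.00808), where KO libraries do not enter the estimate of the spread.

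In sham hearts Inhba was lower in KO, by -0.65 on the log2 scale (SE 0.23, adjusted p = 0.0898, 1.57-fold lower). The direction was the same in all 17 alternatives, but 7 of them no longer called it, with adjusted p up to 0.220 on leaving out WT SH replicate 1. With the Xist term it was -0.76 (adjusted p = 0.0630). Post-MI the genotypes gave 0.15 (SE 0.22, adjusted p = 0.861). Without KO MI replicate 2 the value was -0.29 (adjusted p = 0.179), and the other 3 KO MI libraries (15.0 to 18.7 CPM) were all below the 4 WT MI libraries (19.4 to 22.6 CPM). Inhba in KO MI against WT MI thus changed its sign with 1 library, and it passed in neither fit. The difference of the infarct response between KO and WT was 0.80 (SE 0.31, adjusted p = 0.275).

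Bmp4 rose post-MI in KO hearts and was the member called between the genotypes post-MI. It encodes a BMP ligand that acts in heart development. Bmp4 was at 7.11, 8.39, 6.21 and 6.63 CPM in WT SH and at 5.70, 6.10, 6.01 and 7.11 CPM in KO SH. It was at 7.50, 5.34, 5.76 and 5.65 CPM in WT MI and at 7.79, 13.8, 9.56 and 6.58 CPM in KO MI. The highest values were in KO MI replicates 2 and 3, while replicate 7 lay within the range of each other group. Bmp4 was 1.52-fold higher in KO MI than in KO SH (log2 fold change 0.60, SE 0.18, adjusted p = 0.0345) and 1.56-fold higher than in WT MI (0.64, SE 0.18, adjusted p = 0.0759). Without KO MI replicate 2 these were 0.36 (adjusted p = 0.146) and 0.40 (adjusted p = 0.223), and neither was called. The first call was lost in no other of its 17 alternatives. The second was called in 11 of 17, and was lost too without KO MI replicate 3, without WT MI replicates 2, 3 or 4, and with the compared groups alone. For both calls the CPM ranges of the compared groups overlapped, and the exact permutation test (two-sided) gave p = 0.0571. In WT hearts the infarct response was -0.22 (SE 0.18, adjusted p = 0.572). The responses of KO and WT differed by 0.83 (SE 0.25, adjusted p = 0.199), which did not pass in edgeR and passed in DESeq2 (adjusted p = 0.0600).

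**Figure D2:**
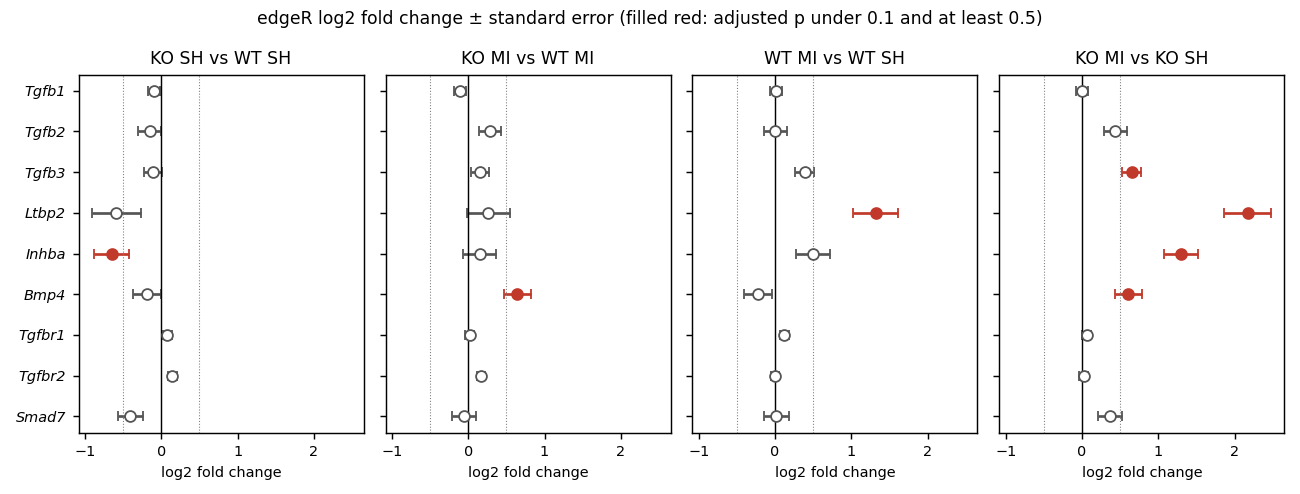
log2 fold change (x axis) with its standard error for the 9 genes in the 4 comparisons, with dotted lines at the fold limit of 0.5. Filled red points are called: Inhba in KO SH against WT SH, Bmp4 in KO MI against WT MI, Ltbp2 in WT MI against WT SH, and Ltbp2, Inhba, Tgfb3 and Bmp4 in KO MI against KO SH.

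Neither receptor gene was called in any comparison. Tgfbr2 encodes the type II receptor that binds the ligand, and Tgfbr1 the type I receptor kinase that phosphorylates SMAD2 and SMAD3. Tgfbr1 ranged from 26.4 to 32.3 CPM over the 16 libraries and its log2 fold changes from 0.02 to 0.12 over the 4 comparisons, none past the test. Tgfbr2 ranged from 55.8 to 60.5 CPM in WT SH, from 61.9 to 67.3 CPM in KO SH, from 55.0 to 63.5 CPM in WT MI and from 60.4 to 68.8 CPM in KO MI. The sham groups did not overlap, and post-MI KO MI replicate 2 alone lay below a WT MI library. The genotype differences of Tgfbr2 were 0.15 (SE 0.05, adjusted p = 0.118) in sham hearts and 0.17 (SE 0.05, adjusted p = 0.161) post-MI, both under the fold limit. Infarct gave log2 fold changes of 0.00 in WT and 0.02 in KO, with 95% intervals within -0.11 and 0.14.

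Smad7, the inhibitory SMAD that competes for the type I receptor, had its lowest group mean in KO SH. It was at 26.0, 23.6, 21.7 and 23.1 CPM in WT SH and at 16.1, 18.1, 18.3 and 19.0 CPM in KO SH, so all KO SH libraries were below all WT SH libraries. It was at 27.2, 23.8, 21.2 and 23.4 CPM in WT MI and at 25.8, 30.6, 22.1 and 13.4 CPM in KO MI, where replicate 7 was the lowest of all 16 libraries. The sham difference was -0.40 (SE 0.16, adjusted p = 0.143) and did not pass, nor did it reach the fold limit with the Xist term (-0.48, adjusted p = 0.0930). In KO hearts the infarct response was 0.37 (SE 0.16, adjusted p = 0.154), and 0.55 (adjusted p = 0.00131) without KO MI replicate 7, where it was called. In WT hearts it was 0.02 (SE 0.16, adjusted p = 0.974).

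None of the 9 genes passed for the interaction, the difference between the KO effect post-MI and the KO effect in sham hearts, where 0.0248% of all genes (5) were called by edgeR. At an unadjusted p under 0.05 there were 2745 genes, 2 of them members (Inhba and Bmp4), and DESeq2 called 289 genes, 1 of them a member (Bmp4). The median interaction of the 9 was 0.35 on the log2 scale. Leaving out KO MI replicate 7 raised the count to 840 genes and 3 members: Inhba (0.96, adjusted p = 0.0673), Smad7 (0.53, adjusted p = 0.0409) and Bmp4 (0.96, adjusted p = 0.0262).

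The weight of KO MI replicate 2 in these results was uneven over the members. It was the highest KO MI library for 8 of the 9 genes and the lowest for Tgfbr2. Its values were 2.22 times those of the next KO MI library for Inhba, 2.05 times for Ltbp2, 1.70 times for Tgfb2 and 1.44 times for Bmp4, but 1.04 times for Tgfb1. Without it, 2 of the 9 members were called in KO MI against KO SH (Ltbp2 and Inhba) in place of 4. Over all genes tested, 885 were then called in place of 1495. The fibroblast markers of KO MI replicate 2, 8 genes, summed to 387 CPM against 464 to 511 CPM in the other KO MI libraries. They did not all go 1 way: Pdgfra (49.9 CPM), Dcn (149 CPM), Gsn (41.2 CPM) and Dpt (21.7 CPM) were below all other libraries. Tcf21, at 25.7 CPM, was above them all, and Lum, Ddr2 and Mfap5 lay within the range of the others. The 10 macrophage markers summed to 103 CPM in a group range of 75.7 to 147 CPM. The atrial and skeletal muscle marker sums of KO MI replicate 2, given above, were the highest of all libraries, and their part in the values of the 9 genes was not tested.

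**Figure D3:**
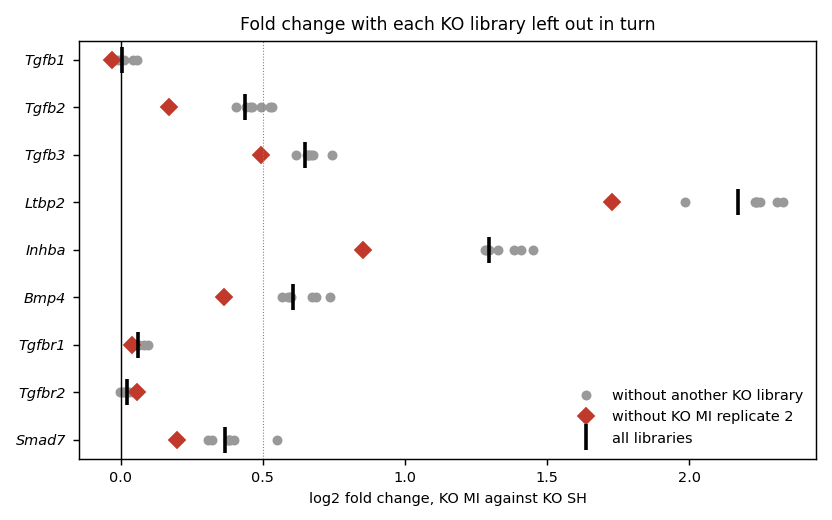
log2 fold change of KO MI against KO SH (x axis) for the 9 genes, with all libraries (black bar), without KO MI replicate 2 (red diamond) and without each other KO library in turn (grey). Leaving out KO MI replicate 2 lowers Ltbp2 from 2.17 to 1.73, Inhba from 1.30 to 0.85 and Bmp4 from 0.60 to 0.36, and moves Tgfb3 to the fold limit.

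Levels of some other cell markers differed between the groups. Among all genes tested, 5.31% were called higher in KO MI against KO SH and 2.13% in WT MI against WT SH. In KO SH against WT SH 2.48% were called higher and 2.53% lower, and in KO MI against WT MI 1.16% were called lower. Fibroblast markers (8 genes, none at 0) summed to 455 to 538 CPM in WT SH, 407 to 448 in KO SH, 472 to 498 in WT MI and 387 to 511 in KO MI. Of these, 1 was called lower in KO among sham hearts and 1 among infarcted hearts, and 0 of 8 were called in either comparison of MI with SH. Macrophage markers (10 genes, none at 0) summed to 67.1 to 78.0 CPM in WT SH, 62.8 to 69.9 in KO SH, 86.6 to 116 in WT MI and 75.7 to 147 in KO MI, and 8 of 10 were called higher in KO hearts post-MI, 1 of 10 higher in WT hearts post-MI and 3 of 10 lower in KO among sham hearts. Epicardial markers (7 genes, none at 0) summed to 16.8 to 18.7 CPM in WT SH, 20.7 to 25.9 in KO SH, 29.7 to 38.8 in WT MI and 19.7 to 56.3 in KO MI. Of these, 6 of 7 were called higher in WT hearts post-MI, 4 of 7 in KO hearts post-MI and 5 of 7 in KO among sham hearts. Erythroid markers (6 genes, none at 0) summed to 523 to 727 CPM in WT SH, 415 to 495 in KO SH, 447 to 630 in WT MI and 353 to 1133 in KO MI, and all 6 were called higher in KO hearts post-MI. Of 6 skeletal muscle markers tested, 5 were called higher in that comparison, and of 4 neutrophil markers tested 4 were called higher in WT and 2 in KO hearts post-MI. The part of these cells in the values of the 9 genes was not tested.

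The pathway around the 9 genes was taken as 9 lists by role with 106 genes, of which 89 were tested, the members included. These lists were chosen with earlier results of these data known, so their counts here and below are descriptive only. In KO MI against KO SH, 22 rose and 3 fell, where 7.42% of all genes were called (5.31% higher and 2.11% lower). In WT MI against WT SH, 5 rose and 0 fell (2.78% of all genes, 2.13% higher and 0.645% lower). In KO SH against WT SH, 1 was higher and 7 lower (5.01%, with 2.48% higher and 2.53% lower). In KO MI against WT MI, 3 were higher and 1 lower (1.73%, with 0.57% higher and 1.16% lower). The list medians stood at 0.14, 0.09, -0.03 and 0.00 on the log2 scale. Without KO MI replicate 2, KO MI against KO SH gave 16 higher and 1 lower, and KO MI against WT MI 0 higher and 1 lower. The 3 higher in KO MI against WT MI became 1 without any single WT MI library, 5 without KO MI replicate 1 and 6 without KO MI replicate 7. The 5 in WT MI became 2 without WT MI replicate 2 and 3 without WT SH replicate 1. The 7 lower in KO SH became 2 without KO SH replicate 1 or 4, 3 without WT SH replicate 2 and 4 without WT SH replicate 1.

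Some latency and activation genes were lower in KO hearts. The list of ligands and latency has 13 genes, and 2 were lower in KO SH: Ltbp1 and Thbs1. Ltbp1, which tethers latent TGF-beta to the matrix, was at 52.4 to 63.5 CPM in WT SH and at 30.9 to 36.5 CPM in KO SH, and at 43.4 to 50.3 CPM in WT MI and at 24.3 to 33.1 CPM in KO MI. Neither pair of groups overlapped, and the log2 fold changes of Ltbp1 were -0.74 (SE 0.09, adjusted p = 0.000109) in sham hearts and -0.56 (SE 0.09, adjusted p = 0.00268) post-MI. The sham difference of Ltbp1 was called in all 17 alternatives, and without KO MI replicate 2 the difference post-MI was -0.47 (adjusted p = 0.00292), under the fold limit. Thbs1, the gene of thrombospondin 1, which can free latent TGF-beta, was lower in KO SH by -0.72 (SE 0.23, adjusted p = 0.0674), a call lost in 7 of 17 alternatives, and rose in KO hearts post-MI from a mean of 33.9 CPM to 67.7 CPM (adjusted p = 0.0115). In that comparison Itgb6, an integrin subunit of a complex that activates latent TGF-beta, fell by 0.82 (SE 0.22, adjusted p = 0.0215), and Itgb8, a related subunit outside the naming rule, had 0.64 (adjusted p = 0.0846).

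Among 9 tested genes for activin, GDF and nodal ligands, Inhba alone was called between the genotypes, in sham hearts. In KO MI against KO SH it rose, and Nodal was called lower at 0.14 against 0.30 CPM, a call held in 3 of 16 alternatives. Its sister subunit gene Inhbb had 0.79 (SE 0.25, adjusted p = 0.103) in WT MI against WT SH and did not pass. Of 9 tested BMP ligand genes, 3 rose in KO MI against KO SH: Bmp4, Bmp7 by 0.67 (SE 0.19, adjusted p = 0.0267; without KO MI replicate 2 0.55, adjusted p = 0.102) and Gdf6 by 2.20 (SE 0.49, adjusted p = 0.00847). Gdf6 was at 1.44 to 9.88 CPM in KO MI, with 9.88 in replicate 2 and at most 2.27 in the others, and at 0.647 to 1.21 CPM in KO SH. Without replicate 2 its rise was 1.12 (adjusted p = 0.0104), and its call in KO MI against WT MI (1.58, adjusted p = 0.0992) became 0.49 (adjusted p = 0.442).

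The receptor list (16 genes) and the signal-transducing SMAD list (6 genes) held 1 call over the 4 comparisons, Acvr2b, an activin type II receptor gene, which fell by 0.56 in KO MI against KO SH (SE 0.18, adjusted p = 0.0516), a call lost in 6 of 17 alternatives, among them that without KO MI replicate 2. The smallest adjusted p among the SMADs was that of Smad9, a BMP SMAD, in the same comparison (0.50, SE 0.17, adjusted p = 0.0601), just under the fold limit. Bambi, which encodes a decoy receptor without kinase activity, was the only one of 10 inhibitor genes called. It was at 4.38 to 5.05 CPM in WT SH against 6.97 to 7.87 CPM in KO SH, and at 4.71 to 5.47 CPM in WT MI against 6.39 to 8.17 CPM in KO MI. Bambi was thus higher in KO hearts in both settings, by 0.68 (SE 0.09, adjusted p = 0.000202) and by 0.53 (SE 0.09, adjusted p = 0.0030). The first was called in all 17 alternatives, and the second fell under the fold limit without KO MI replicate 2 (0.48, adjusted p = 0.0109) and without WT MI replicate 1.

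Of 8 secreted antagonists tested, 4 rose post-MI in KO hearts, and 2 did without KO MI replicate 2 or without KO SH replicate 2. The 4 were Fstl3, a follistatin-like protein that binds activin (1.13, SE 0.26, adjusted p = 0.0107), Nbl1 (0.51, SE 0.15, adjusted p = 0.0338), Sost (1.80, SE 0.56, adjusted p = 0.0451) and Fst, the gene of follistatin (1.43, SE 0.45, adjusted p = 0.0504). Fst and Sost were low, with group means of at most 1.34 CPM, and Sost encodes sclerostin, best known as a Wnt inhibitor. Sost had 0.72 (adjusted p = 0.353) and Fst 1.26 (adjusted p = 0.151) without KO MI replicate 2, and neither was called. Fstl3 was at 2.35 to 3.25 CPM in KO SH and at 4.13 to 11.5 CPM in KO MI, the groups not overlapping, and without KO MI replicate 2 its rise was 0.65 (adjusted p = 0.0164). In WT hearts 0 of 8 antagonists were called, with Fstl3 at 0.54 (SE 0.27, adjusted p = 0.329). Nbl1, a BMP antagonist of the DAN family, was lower in KO sham hearts by -0.62 (SE 0.15, adjusted p = 0.0177).

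Of 14 genes known to be induced by TGF-beta, 10 rose in KO MI against KO SH and 4 in WT MI against WT SH. Among all genes tested, 5.31% and 2.13% were called higher in these comparisons. The list medians were 0.70 and 0.50 on the log2 scale. In KO hearts 10 to 12 were called on leaving out single libraries, 10 of them without KO MI replicate 2. In WT hearts the 4 became 1 without WT MI replicate 2, 2 without WT SH replicate 1 and 3 with the Xist term. The list overlaps with scar and matrix genes that other signals also induce. Lox, which crosslinks collagen, was at 14.3 to 17.7 CPM in WT SH and at 26.7 to 35.3 CPM in WT MI (0.95, SE 0.24, adjusted p = 0.0444), and at 11.6 to 15.3 CPM in KO SH and at 21.2 to 69.5 CPM in KO MI (1.60, SE 0.25, adjusted p = 0.0011). Fn1, the fibronectin gene, rose by 0.55 (SE 0.13, adjusted p = 0.0329) in WT and by 0.96 (SE 0.13, adjusted p = 0.000753) in KO. Postn, which marks activated fibroblasts, rose in KO by 0.60 (SE 0.06, adjusted p = 0.000269) and Col1a2 by 0.68 (SE 0.10, adjusted p = 0.000753), and in WT also Tgfbi (0.66, adjusted p = 0.0183) and the protease inhibitor gene Timp1 (0.97, adjusted p = 0.0436) were called. Of the 14 targets, 0 were called for the interaction and 0 in KO MI against WT MI. Without KO MI replicate 7, 2 were called for the interaction and 1 was called higher in KO MI against WT MI. Without KO MI replicate 2, 1 was called lower in KO MI against WT MI.

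In sham hearts 2 of the 14 targets were lower in KO. Cthrc1, a secreted protein of activated fibroblasts, was at 2.93 to 4.25 CPM in WT SH and at 1.62 to 2.63 CPM in KO SH (-0.83, SE 0.24, adjusted p = 0.0403). Acta2, the smooth muscle actin gene, differed by -0.56 (SE 0.16, adjusted p = 0.0396), and reads of Acta2 are partly shared with other actin genes, so its counts carry more uncertainty. Among 4 BMP target genes, Id1, a direct BMP target, was lower in KO SH by -0.52 (SE 0.11, adjusted p = 0.00969). With the Xist term the 3 values were -0.93, -0.64 and -0.53, all called. None of the 3 was called without WT SH replicate 2, KO SH replicate 1 or KO SH replicate 4, and Acta2 was not called without WT SH replicate 1.

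**Figure D4:**
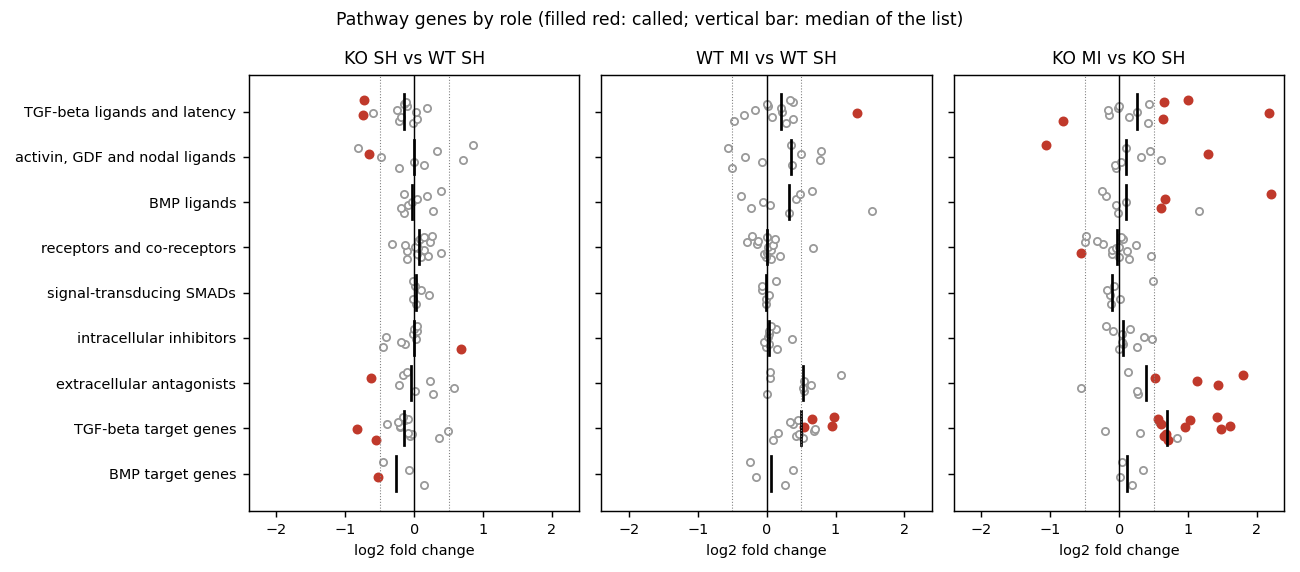
log2 fold change (x axis) of the tested genes of 9 role lists in 3 comparisons, with called genes in red and the list median as a black bar. In KO MI against KO SH, the called TGF-beta targets, antagonists and BMP ligands all lie on the right. Of the ligand and latency genes, 4 are called higher and 1 lower. The receptor and SMAD list medians lie near 0, with 1 receptor gene called lower.

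The genes most like each called member over the 16 libraries were matrix genes for Tgfb3 and Ltbp2. These are descriptive, since the libraries fall into 4 groups, and 14118 genes were compared by Pearson's r of log2 CPM. For Ltbp2 they were Col12a1 (r 0.991), Col5a2 (0.963) and Col16a1 (0.963), all collagen genes. For Tgfb3 they were Col5a2 (0.967), Col1a1 (0.961) and Col16a1 (0.961). For Inhba they were Synpo (0.976), Anxa2 (0.965) and Specc1 (0.956), and for Bmp4 Isg20 (0.884), Casq1 (0.875) and Gbe1 (0.873). After removing group means, the r of Ltbp2 with Col12a1 was 0.963 and that of Inhba with Synpo 0.955, while those of Bmp4 were 0.788, 0.831 and 0.790. KO MI replicate 2 lay far above the other KO MI libraries for Ltbp2 and Inhba, and r without that library was not computed. By ranks over the 16 libraries, group differences left in, Spearman's rho of Bmp4 with Isg20, Casq1 and Gbe1 was 0.688, 0.562 and 0.529. For the genes named for the other called members it was 0.926 to 0.991.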

How the data were processed

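RNA of 16 ventricle libraries was sequenced on both ends. The deposited table holds expected counts per gene, which per the labels were made with RSEM (1.1.17) after cutadapt (3.4) and HISAT2 (2.2.1) on GRCm39; the study's methods name Skewer, STAR and RSEM, so the aligner is uncertain. The authors' values are whole numbers, without normalization. Symbols came from GENCODE release M39, matching 47772 of 51912 IDs. The unmatched IDs held from 0.570% to 0.786% of a library's counts.

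Genes with at least 10 counts summed in each group (20159) were fitted in R (4.3.3) with edgeR (4.0.16) and limma (3.58.1): TMM, 1 coefficient per group, quasi-likelihood F-tests (two-sided), Benjamini-Hochberg. Members were checked singly by a two-sided exact permutation test of log2(CPM + 0.5) whose smallest p is 0.0286. Correlations used log2 CPM with a prior count of 2. Alternatives were DESeq2 (1.42.0), its size factors in edgeR, a robust fit, 3 other filters (10 counts or more per library, filterByExpr, none), the 2 compared groups alone, replicate block, an Xist term, an adjusted p under 0.05, no minimum fold, each library left out, and log2(CPM + 0.05) for the permutation test.

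The members and the gene lists were chosen with earlier results of these data known. All 9 members are described. In each list and comparison up to 4 called genes are named by smallest adjusted p, or 1 gene where none was called, and other genes outside this rule are marked. The likeness genes are the 3 with the highest r among genes of at least 1 CPM. Totals were 33783874 to 57470159 counts, and 3 counts, the floor, are 0.0577 to 0.0858 CPM. Floors cover counting error only. The smallest chi-square per degree of freedom between libraries was 4.71, so no pair agreed within sampling noise. Positions are GRCm39, 1-based. Some items, a promoter window among them, are not reported here.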

Additional observations from a re-analysis of the deposited data

Results flagged for a closer look

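With 4 libraries a value counts as far from the others where its gap to the nearest one exceeds Dixon's critical share of the group's range. Of 36 groups (9 genes in 4 groups), 3 met this, where chance gives about 1 in 20. Inhba in KO MI replicate 2 was at 41.5 CPM and the next KO MI library at 18.7 CPM. Tgfb2 in the same library was at 41.0 CPM and the next at 24.1 CPM. Ltbp2 in KO SH replicate 1 was at 1.49 CPM and the next KO SH library at 2.82 CPM. Without KO MI replicate 2 the log2 fold change of KO MI against KO SH was 0.85 for Inhba and 0.17 for Tgfb2.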

How the results depend on the processing

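Of 828 member fold changes recomputed, 757 kept their direction and their side of the threshold, 12 newly passed, 15 no longer passed and 44 changed sign, none of these called before or after. On leaving out single libraries, KO MI against WT MI ran from -0.0024 to 0.25 for Tgfb3, -0.00078 to 0.054 for Tgfbr1, -0.18 to 0.42 for Ltbp2, -0.29 to 0.31 for Inhba and -0.22 to 0.13 for Smad7, each lowest without KO MI replicate 2. WT MI against WT SH ran from -0.030 to 0.069 for Tgfb1, -0.044 to 0.047 for Tgfb2, -0.042 to 0.029 for Tgfbr2 and -0.053 to 0.070 for Smad7. KO MI against KO SH ran from -0.031 to 0.055 for Tgfb1 and -0.0032 to 0.058 for Tgfbr2, and the interaction from -0.067 to 0.037 for Tgfb1 and -0.0077 to 0.062 for Tgfbr2. In WT MI against WT SH, Tgfb2 and Tgfbr2 were at -0.0010 and -0.00075 with DESeq2, -0.0015 and -0.0011 with its size factors, -0.0012 and -0.0010 with filterByExpr, and -0.069 and -0.0067 with the Xist term, which gave Smad7 -0.066. Without a filter Tgfb1 in KO MI against KO SH was at -0.0016. Leaving out each library in turn gave 661 to 1217 DEGs and 0 to 1 members in KO SH against WT SH (main 1010 and 1), 227 to 575 DEGs and 0 to 1 members in KO MI against WT MI (348 and 1), 283 to 632 DEGs in WT MI against WT SH (560), 885 to 2180 DEGs and 2 to 6 members in KO MI against KO SH (1495 and 4), and 2 to 840 DEGs and 0 to 3 members for the interaction (5 and 0). Libraries moving a count by over 1.5 times were WT SH replicate 1 (661 DEGs) for KO SH against WT SH, WT MI replicate 1 (227) and KO MI replicate 7 (575) for KO MI against WT MI, WT SH replicate 1 (364) and WT MI replicate 2 (283) for WT MI against WT SH, KO MI replicate 2 (885) for KO MI against KO SH, and 11 of the 16 libraries for the interaction: WT SH replicate 4 (169), KO MI replicate 7 (840), WT SH replicates 1 and 2, KO SH replicate 3, WT MI replicate 1 and KO MI replicate 3 (2 each), and KO SH replicates 1, 2 and 4 and WT MI replicate 3 (3 each). The cause was not tested.

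With no minimum fold change there were 2486, 619, 1071 and 3536 DEGs in the 4 comparisons, and 2 members in WT MI against WT SH. An adjusted p under 0.05 left 0 members in both genotype comparisons and 3 DEGs for the interaction. A robust fit left 0 members in KO SH against WT SH and gave 8 DEGs for the interaction. With the compared groups alone, KO MI against WT MI had 192 DEGs and 0 members, and WT MI against WT SH 2 members. For the interaction, DESeq2 called 289 DEGs and 1 member, no filter gave 39 DEGs and the Xist term 8.

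Replicate numbers did not pair the libraries, since the deviations of same-numbered libraries correlated at -0.038 to 0.112. With the number as a block, Tgfb2 in WT MI against WT SH was at -0.0070 and Smad7 in KO MI against WT MI at 0.13, the interaction had 689 DEGs and 3 members, and KO MI against KO SH 2007 DEGs and 5 members. The block gives KO MI replicate 7 a level of its own, which in effect removes it.

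Ltbp2, with 66 to 1023 counts a library, is the least precise of the 9, and 4 libraries a group limit every comparison.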

Other observations

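In KO MI replicate 2 further pathway genes were far above the other KO MI libraries, a comparison made after the values were seen. Of 77 pathway genes with at least 1 CPM in the group, 12 were at least 1.5 times the next library. The same share over all genes was not computed, so this count is not a result about the pathway. Ccn2, a matricellular gene, was at 93.9 CPM against 21.6 to 37.8 CPM. Tagln was at 15.5 CPM against 5.16 to 6.17 CPM. Other pathway genes went the other way in that library, such as the co-receptor gene Tgfbr3 at 37.1 CPM against 51.1 to 76.5 CPM.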
